A study of Mus musculus with 2 samples.

Results

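The DNA replication machinery was examined in DN3 thymocytes labelled as Miz-1 knockout and in wild-type DN3 thymocytes. The members were 52 genes picked by name for their roles in DNA replication and S phase, and 51 of them had a named probe set among 18193 genes named on the array. Every one of the 51 was measured, meaning that the mean signal of its brightest probe set lay above a floor of 394, the median signal of the 2 arrays. Chaf1a, the remaining member, was not analysed here. The first group was 1 array of Miz-1 knockout cells from mice of C57BL/6 background with the Miz1-delta-POZ allele, which lacks the POZ domain that Miz-1 uses to bind partner proteins. The second was 1 array of wild-type cells of the same background. Both RNAs came from thymocytes sorted as lineage-negative, CD44-negative and CD25-positive, the surface phenotype of DN3 cells. The sources used here do not give the age of the animals, what drives the deletion or whether cells were pooled. With 1 array per genotype there was no replicate and no test, so each difference is described by its size.

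DNA replication is prepared in G1, when the origin recognition complex, CDC6 and CDT1 load the MCM helicase ring onto origins, a step called licensing that geminin blocks later in the cycle. At S phase entry, CDC7 with DBF4 and cyclin E with its kinase help to switch the loaded rings into active helicases that also hold CDC45 and the GINS complex. Polymerase alpha and primase lay down primers, polymerases delta and epsilon extend them on the PCNA clamp, and ribonucleotide reductase and thymidylate enzymes supply the nucleotides. Many of these genes are transcribed under the control of E2F factors when cells enter the cycle. In the thymus, DN3 cells divide rapidly after they pass beta-selection, and resting and dividing cells are both found within the DN3 gate.

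Checks of the arrays set the frame for these values. Zbtb17, which encodes Miz-1, read 1361 in knockout cells against 3042 in wild-type cells, 2.23-fold lower. Its other probe set read 610 in knockout cells against 47.6 in wild-type cells but was not measured under the rule above, and whether either lies in the deleted stretch was not tested. All measured genes together had a median log2 ratio, knockout over wild type, of 0.00. Measured probe sets of the same gene differed among themselves with an SD of 0.57 on the log2 scale over 4514 genes, which is the sole repeated measurement and covers nothing between animals. Of 12 DN3 markers, 10 had a probe set and all 10 were measured, 3 of them at least 2-fold higher in knockout cells. Over all measured genes, 7.23% were at least 2-fold higher. CD25 is encoded by Il2ra, which read 23018 in knockout cells against 4992 in wild-type cells, the highest ratio of the 10. The median log2 ratio of the 10 was 0.42. Bcl11b, Cd3e and Gata3 lay near 0, at 0.023, 0.085 and 0.16. Rag1 was the 1 marker below 0, at 34741 in knockout cells against 45865 in wild-type cells. Among markers of other cells, 2 of 8 myeloid genes, 3 of 7 stromal genes and 3 of 6 B cell genes were measured. The measured myeloid genes summed to 3849.9 in knockout cells against 1265 in wild-type cells, and the B cell genes to 4117 in knockout cells against 2274 in wild-type cells. The stromal genes summed to 6336 in knockout cells against 3741 in wild-type cells. Most of the stromal sum came from Epcam, at 4947 in knockout cells against 2604 in wild-type cells. Col1a1 read 634 in knockout cells against 274, under the floor, in wild-type cells. Krt5 was lower, at 756 in knockout cells against 863 in wild-type cells. All of these measured myeloid and B cell genes were higher in knockout cells, Lyz2 3.59-fold, Csf1r 2.28-fold, Cd79b 1.86-fold, Cd79a at least 1.71-fold and Ms4a1 1.45-fold. The defining myeloid markers Itgam, Mpo and S100a8 and the B cell factors Pax5 and Ebf1 were under the floor in knockout and wild-type cells alike. Of the other marker lists, 3 of 6 early progenitor genes summed to 1656 in knockout cells against 1717 in wild-type cells, and 3 of 5 NK and innate lymphoid genes to 18767 in knockout cells against 22266 in wild-type cells. Most of the NK sum came from Gzma, which was lower, at 13881 in knockout cells against 19641 in wild-type cells. Klrd1 was also lower, at 232 in knockout cells, under the floor, against 683 in wild-type cells. Nkg7 was 2.40-fold higher, at 4655 in knockout cells against 1942 in wild-type cells. The 1 measured gene of 5 for single and double positive thymocytes read 541 in knockout cells against 497 in wild-type cells, and the 1 of 5 for erythroid cells read 522 in knockout cells against 481 in wild-type cells. Xist, the female-specific transcript, read 55300.0 on the knockout array and 423 on the wild-type array, so the arrays also differed in sex, and sex and genotype cannot be told apart. The part of other cells in the values below was not tested.

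Replication genes were lower in knockout cells as a group. Of the 51 measured members, 47 had a log2 ratio below 0, or 92.2%, where 50.0% of all 10770 measured genes did. At least 2-fold lower were 14 members, or 27.5%, against 5.65% of all measured genes. That count was 9 under quantile or loess normalization, 10 with the mean of probe sets and 8 of 46 without probe sets of shared sequence, and it includes Ccne1 and Cdc45, whose other probe sets read above 0. The share at least 2-fold higher was 7.23% over all measured genes, and Orc4 was the 1 member among them. Another 13 members were between 1.5-fold and 2-fold lower, so that 27 of 51 passed 1.5-fold downward, as 17.9% of all measured genes did, while 19.2% of all measured genes and again Orc4 alone of the members passed 1.5-fold upward. The median log2 ratio of the members was -0.63, with quartiles of -1.02 and -0.44. Fewer cells in S phase and less of each transcript per cell cannot be told apart in RNA from bulk cells.

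**Figure D1:**
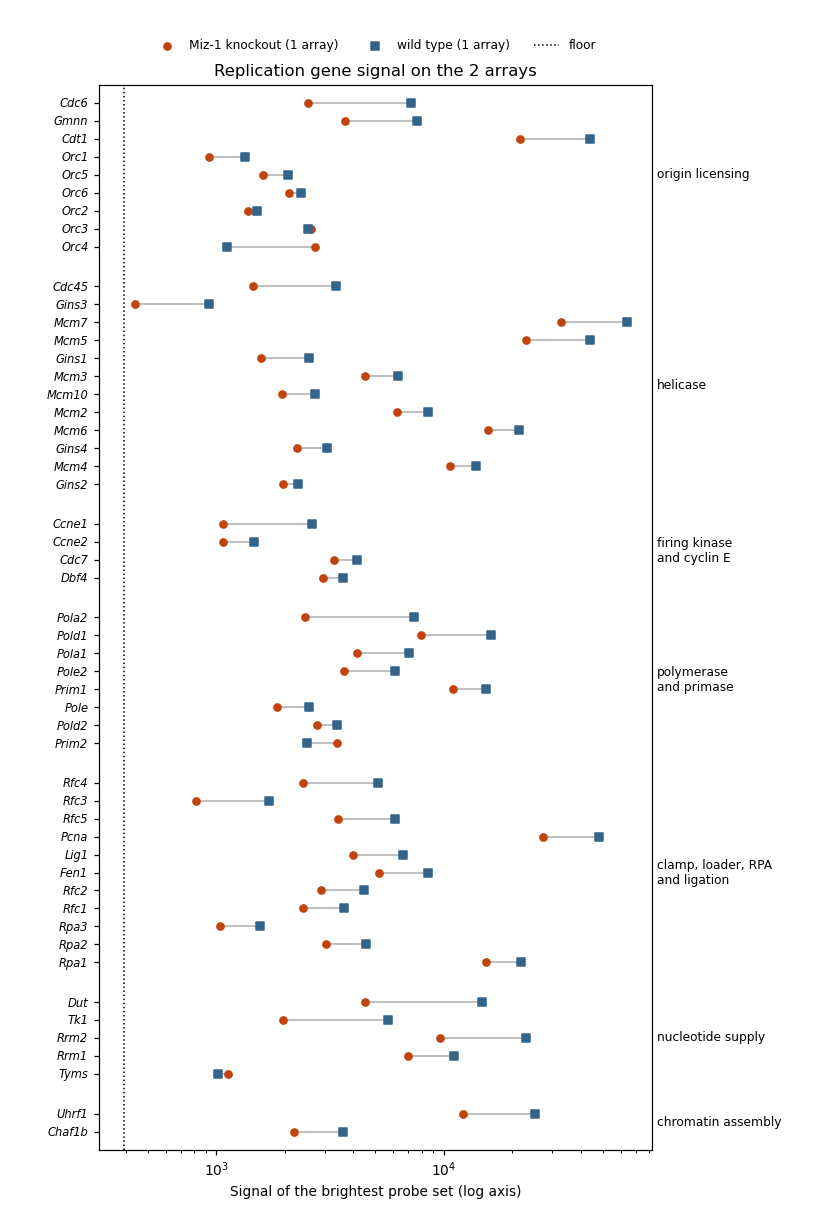
Signal of the brightest probe set of each of the 51 replication genes on a log axis, grouped by role, with a circle for the knockout array, a square for the wild-type array and a dotted line at the floor of 394. Orc3, Orc4, Prim2 and Tyms are the 4 genes whose circle lies to the right of the square.

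The regulators of origin licensing were at least 2-fold lower, while the origin recognition complex itself showed no common shift. Cdc6, the ATPase that brings the MCM ring to the origin, read 2535 in knockout cells against 7207 in wild-type cells, 2.84-fold lower. Its partner in loading, Cdt1, read 21709 in knockout cells against 43956 in wild-type cells, 2.02-fold lower. The second measured Cdt1 probe set read 2218 in knockout cells against 5583 in wild-type cells, 2.52-fold lower, so that both lay past 2-fold. Gmnn, which encodes geminin, the protein that binds CDT1 and stops a second round of loading, read 3676 in knockout cells against 7632 in wild-type cells, 2.08-fold lower. The activator and the inhibitor of loading thus lay on the same side. Under quantile normalization Cdt1 was at -0.62 and Gmnn at -0.98, and under loess normalization Cdt1 was at -0.61 and Gmnn at -0.95, so neither reached 2-fold there.

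The 6 subunits of the origin recognition complex had a median log2 ratio of -0.15, and none was 2-fold lower. Orc1, the subunit that comes and goes with the cell cycle in mammalian cells, was the lowest, at 931 in knockout cells against 1343 in wild-type cells, a log2 ratio of -0.53. Orc5, Orc6 and Orc2 had log2 ratios of -0.36, -0.18 and -0.13. These values lie within the spread between probe sets of 1 gene. Another Orc2 probe set, with the knockout array under the floor, had a log2 ratio of at most -0.77. Orc3 read 2618 in knockout cells against 2527 in wild-type cells, but its other 2 probe sets, each with 1 array under the floor, were opposed, with log2 ratios of at most -1.14 and at least 0.85. Orc4 was the only member past 2-fold upward, at 2731 in knockout cells and 1118 in wild-type cells, 2.44-fold higher. Its other 2 measured probe sets had log2 ratios of -0.019 and 0.66, so the higher reading was not shared by all of them.

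By its brightest probe set every helicase gene was below its wild-type level, though most by less than 2-fold. The 12 genes of the class, the MCM ring, MCM10, CDC45 and GINS, had log2 ratios from -1.21 to -0.22, with a median of -0.48. The 6 subunits of the ring, Mcm2 to Mcm7, lay between -0.96 and -0.38, and none reached 2-fold by its brightest probe set. Mcm7 read 32616 in knockout cells against 63609.9 in wild-type cells, 1.95-fold lower, and all 4 of its probe sets lay between -1.05 and -0.73. All 4 count as probe sets of shared sequence, so Mcm7 had no value in the setting without these. Mcm5 read 23056 in knockout cells against 43964 in wild-type cells, 1.91-fold lower. By their brightest probe sets these were the subunits furthest from wild type, but other probe sets of Mcm3, Mcm6 and Mcm4 reached -0.80, -0.71 and -0.70, against -0.54 for the second of Mcm5. Under quantile normalization Mcm5 was at -0.51, Mcm7 at -0.49, Mcm3 at -0.41, Mcm2 at -0.34, Mcm4 at -0.16 and Mcm6 at -0.15. Loess normalization gave -0.52, -0.49, -0.37, -0.30, -0.12 and -0.13 in the same order.

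Mcm2 read 6212 in knockout cells against 8563 in wild-type cells, a log2 ratio of -0.46. Mcm3, Mcm6 and Mcm4 had log2 ratios of -0.48, -0.45 and -0.38. These, like that of Mcm2, lie within the spread between probe sets of 1 gene. The 17 measured probe sets of the 6 subunits were all below 0, from -1.05 to -0.31, against 13 measured probe sets, 9 of them below 0, for the origin recognition complex. Over all measured probe sets of named genes, 48.7% were below 0. Under quantile normalization Orc1, at -0.64, lay lower than each subunit of the ring. Orc3 and Orc4 were above 0 there, at 0.023 and 1.21. Mcm10, a scaffold needed to start unwinding, read 1949 in knockout cells against 2718 in wild-type cells, a log2 ratio of -0.48. Another measured Mcm10 probe set, with the knockout array under the floor, had one of at most -0.91. Cdc45, which joins the ring when it becomes active, read 1453 in knockout cells against 3371 in wild-type cells, 2.32-fold lower. Its second probe set pointed the other way, at 924 in knockout cells against 663 in wild-type cells, so no direction can be given for Cdc45.

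The 4 GINS genes, whose products form a small complex that holds CDC45 on the ring, were spread over the same range. Gins3 read 438 in knockout cells against 929.7 in wild-type cells, 2.12-fold lower, and its second probe set was at least 1.91-fold lower, with the knockout array below the floor. These are dim signals close to the floor, and with the floor at the 60th percentile of signals Gins3 was at -0.76. Gins1 and Gins4 had log2 ratios of -0.70 and -0.44. Gins2 had one of -0.22 by its brightest probe set and of -0.87 by the other.

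Promoters of 2 licensing and 3 MCM genes are shown because all 5 genes had a log2 ratio below 0, are textbook E2F targets and hold the letters an E2F factor reads. The ratio of Mcm6, -0.45, lies within the spread between probe sets of 1 gene and was -0.15 under quantile normalization. As the 5 were picked by both traits, they show no link between the letters and the ratio. RefSeq promoter windows of 300 bases, 250 before and 50 after the annotated start, were available for 43 of the 52 members, 53 windows in all, on the GRCm38.p6 assembly. They were searched on both strands for 4 spellings of the E2F consensus, TTTGGCGC, TTTCCCGC, TTTCGCGC and TTTGCCGC. In the sequences, written 5′ to 3′ on the strand of the gene, capitals mark these letters on either strand. Matches on the opposite strand appear as the reverse complement, and matches that overlap run together.
Cdc6, chr11:98907901-98908200, plus strand: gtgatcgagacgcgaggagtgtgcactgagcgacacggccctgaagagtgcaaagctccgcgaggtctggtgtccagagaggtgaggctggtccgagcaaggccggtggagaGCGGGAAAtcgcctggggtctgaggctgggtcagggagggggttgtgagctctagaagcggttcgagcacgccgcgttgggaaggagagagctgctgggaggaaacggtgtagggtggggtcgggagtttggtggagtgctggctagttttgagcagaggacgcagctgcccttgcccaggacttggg
Cdt1, chr8:122567765-122568064, plus strand: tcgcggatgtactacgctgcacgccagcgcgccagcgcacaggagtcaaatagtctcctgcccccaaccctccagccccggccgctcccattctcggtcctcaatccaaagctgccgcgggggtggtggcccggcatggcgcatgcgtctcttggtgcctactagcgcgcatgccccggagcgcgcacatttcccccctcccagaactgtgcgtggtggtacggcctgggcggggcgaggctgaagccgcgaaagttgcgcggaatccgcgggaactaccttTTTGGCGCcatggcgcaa
Mcm5, chr8:75109259-75109558, plus strand: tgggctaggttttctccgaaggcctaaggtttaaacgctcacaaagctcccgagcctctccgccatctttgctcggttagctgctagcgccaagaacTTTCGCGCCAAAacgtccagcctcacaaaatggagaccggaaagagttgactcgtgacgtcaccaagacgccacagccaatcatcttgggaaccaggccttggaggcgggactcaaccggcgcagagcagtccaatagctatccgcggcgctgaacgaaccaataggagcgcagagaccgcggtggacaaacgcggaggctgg
Mcm6, chr1:128359656-128359955, minus strand: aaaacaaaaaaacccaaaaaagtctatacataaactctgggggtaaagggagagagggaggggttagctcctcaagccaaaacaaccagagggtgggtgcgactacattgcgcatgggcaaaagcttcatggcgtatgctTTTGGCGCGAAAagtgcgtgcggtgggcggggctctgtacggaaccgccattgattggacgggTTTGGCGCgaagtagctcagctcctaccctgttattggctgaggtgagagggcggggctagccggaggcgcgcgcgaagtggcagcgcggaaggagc
Mcm7, chr5:138171834-138172133, minus strand: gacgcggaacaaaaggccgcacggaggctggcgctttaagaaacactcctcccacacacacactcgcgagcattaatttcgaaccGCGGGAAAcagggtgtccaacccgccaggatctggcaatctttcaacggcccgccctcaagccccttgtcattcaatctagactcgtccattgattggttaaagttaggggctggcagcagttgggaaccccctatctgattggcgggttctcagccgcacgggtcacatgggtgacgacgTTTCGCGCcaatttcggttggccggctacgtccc

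In the Mcm5 window a pair of matches overlaps, beginning at positions -153 and -149 from the start site. The Mcm6 window holds 3 matches, 2 of which overlap. The Mcm7 window holds 2, beginning at positions -165 and 17, and the last base of the downstream match is the first of a CCAAT. A second annotated Mcm7 window held none. Of the 53 member windows, 15 held the E2F letters, or 28.3%, against 2.26% of all 32851 windows and 4.04% of the windows of measured genes. The letters CCAAT, read by the factor NF-Y, were in 52.8% of the member windows, 37.4% of all windows and 37.4% of the windows of measured genes. The letters TTTGAA, the cell cycle homology element of many mitotic genes, were in 15.1% of the member windows, 17.9% of all windows and 12.1% of the windows of measured genes.

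**Figure D2:**
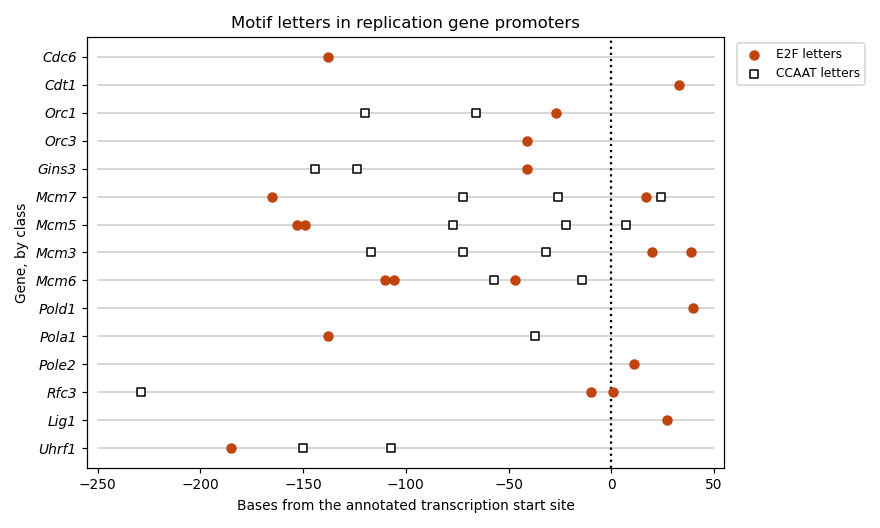
First base of each E2F match (filled circles) and each CCAAT (open squares) in the promoter window that holds the E2F letters, for the 15 members with such a window, in bases from the annotated start site. The E2F matches lie between positions -185 and 40.

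The E2F letters were unevenly spread over the classes. They were found in 5 of 8 helicase genes with a window, 4 of 8 licensing genes, 3 of 6 polymerase genes, 2 of 10 genes of the clamp class and 1 of 3 chromatin genes. None of the 5 nucleotide supply genes and none of the 3 firing genes with a window held them. Of the 13 members at least 2-fold lower that had a window, 6 held the letters, against 9 of the 29 other analysed members. Orc3, with a log2 ratio of 0.051, was among those 9. A match is a run of letters and not a shown binding site, and the absence of one says nothing of a factor's binding elsewhere.

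Both subunits of the kinase that fires origins were lower by less than 1.5-fold in their brightest probe sets. Cdc7, the catalytic subunit, read 3279 in knockout cells against 4146 in wild-type cells, and Dbf4, its activator, read 2937 in knockout cells against 3625 in wild-type cells. Their log2 ratios of -0.34 and -0.30 are smaller than the spread between probe sets. The second Cdc7 probe set read 1437 in knockout cells against 1353 in wild-type cells, so no direction can be given for Cdc7. The E cyclins, which drive the kinase of the G1 to S transition, did not give a common answer. Ccne2 read 1077 in knockout cells against 1471 in wild-type cells, a log2 ratio of -0.45. Ccne1 read 1070.5 in knockout cells against 2639 in wild-type cells by its brightest probe set, 2.46-fold lower. By its other probe set Ccne1 read 1208 in knockout cells against 814 in wild-type cells, the opposite direction, so no direction can be given for Ccne1.

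Among the polymerases, a subunit of each of 2 enzymes was at least 2-fold lower. Pola2, the regulatory subunit of the polymerase alpha and primase complex, read 2469 in knockout cells against 7389.6 in wild-type cells, 2.99-fold lower. The catalytic subunit gene Pola1, which lies on the X chromosome, read 4155 in knockout cells against 7021 in wild-type cells, 1.69-fold lower. The 314 measured genes of the X chromosome had a median log2 ratio of -0.045. Prim1, the small primase subunit, read 10955 in knockout cells against 15358 in wild-type cells, with a log2 ratio of -0.49. Its other probe set had a log2 ratio of -0.78. Prim2, the large subunit, had log2 ratios of 0.44, -0.23 and at least 1.03 for its 3 probe sets, so the genes of this 4-subunit complex did not share a direction in every reading.

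Pold1, the catalytic subunit of polymerase delta, which makes most of the lagging strand, read 7950.1 in knockout cells against 16136 in wild-type cells, 2.03-fold lower. Its second probe set gave nearly the same, 1.99-fold. Pold2, a smaller subunit of the enzyme, had a log2 ratio of -0.29. For polymerase epsilon, the leading strand enzyme, the order was the reverse. The catalytic subunit gene Pole read 1860.1 in knockout cells against 2561 in wild-type cells, with a log2 ratio of -0.46, and the subunit gene Pole2 read 3645 in knockout cells against 6129 in wild-type cells, with one of -0.75. No gap between subunits could be tested.

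The genes of the clamp, its loader, single-strand binding and ligation were all lower in knockout cells by the brightest probe set, though other probe sets of Rfc1 and Rfc2 read above 0. The 11 log2 ratios ran from -1.11 to -0.50, with a median of -0.71. Pcna, the sliding clamp that tethers the polymerases, read 27311 in knockout cells against 47896 in wild-type cells, 1.75-fold lower by its single probe set. The 5 subunits of replication factor C, which opens the clamp and sets it on DNA, lay between -1.11 and -0.59.

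Rfc4 read 2399 in knockout cells against 5163 in wild-type cells, 2.15-fold lower, but 1.25-fold by its second probe set. Rfc3 read 815 in knockout cells against 1714 in wild-type cells, 2.10-fold lower, and its second probe set was 1.94-fold lower. Rfc3 is thus the loader subunit with the more repeatable reading of this pair. Rfc5, Rfc2 and Rfc1 had log2 ratios of -0.84, -0.63 and -0.59, and the opposed probe sets were at 0.033 for Rfc1 and 0.40 for Rfc2. Replication protein A, the trimer that coats single-stranded DNA, had log2 ratios of -0.50 for Rpa1, -0.58 for Rpa2 and -0.58 for Rpa3 by the brightest probe sets. The second Rpa2 probe set gave -0.091, and under quantile normalization Rpa1 was at -0.19 and Rpa3 at -0.69. Fen1, the flap nuclease that trims Okazaki fragments, read 5202 in knockout cells against 8528 in wild-type cells, and Lig1, the ligase that joins them, read 3985 in knockout cells against 6626 in wild-type cells. These genes of adjoining steps had log2 ratios of -0.71 and -0.73.

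Nucleotide supply was the class with the lowest median log2 ratio, -1.25 over 5 genes. Dut, the enzyme that removes dUTP and makes the precursor of thymidylate, read 4496 in knockout cells against 14682 in wild-type cells, 3.27-fold lower, the lowest log2 ratio of any member by the brightest probe set. With the mean of probe sets Dut was at -1.36, above Pola2, Tk1 and Cdc6. Its second probe set was at least 2.03-fold lower, with a knockout signal below the floor. Tk1, the thymidine kinase that salvages thymidine in S phase, read 1976 in knockout cells against 5692 in wild-type cells, 2.88-fold lower. Rrm2, the S phase subunit of ribonucleotide reductase, read 9665 in knockout cells against 23008 in wild-type cells, 2.38-fold lower. Its other probe sets were 1.94-fold and 2.19-fold lower, so that all 3 readings lay close to or past 2-fold.

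Rrm1, the partner of Rrm2, whose protein is more stable through the cycle, read 6959 in knockout cells against 11111 in wild-type cells, 1.60-fold lower. Its second measured probe set was 1.85-fold lower. Tyms, thymidylate synthase, was the exception of the class, at 1126 in knockout cells against 1019 in wild-type cells, a log2 ratio of 0.14. The other 3 Tyms probe sets were under the floor in both genotypes, so that this reading rests on 1 dim probe set.

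In chromatin assembly and maintenance, Uhrf1, which binds newly copied DNA and recruits the maintenance methyltransferase, read 12129.6 in knockout cells against 25240.4 in wild-type cells, 2.08-fold lower. Its second probe set was 1.18-fold lower. Chaf1b, a subunit of the histone chaperone that places histones behind the fork, read 2202 in knockout cells against 3594 in wild-type cells, 1.63-fold lower. Its second, dimmer probe set read 757 in knockout cells and 396 in wild-type cells, so that Chaf1b has no single direction.

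Set side by side, the classes differed in their medians but overlapped in their ranges. The median log2 ratio was -1.25 for nucleotide supply, -0.88 for chromatin assembly (2 genes), -0.71 for the clamp class and -0.62 for polymerase and primase. It was -0.48 for the helicase, -0.39 for the firing genes and -0.36 for licensing. At least 2-fold lower were 3 of 5 nucleotide supply genes, 3 of 9 licensing genes, 2 of 8 polymerase genes, 2 of 11 clamp genes, 2 of 12 helicase genes, 1 of 4 firing genes and 1 of 2 chromatin genes. The share over all measured genes was 5.65%. Some of these values rest on genes whose probe sets disagree. With the mean of probe sets, which averages the opposed readings of Chaf1b, the chromatin median was -0.27, the smallest shift of the 7 classes. Without probe sets of shared sequence, Ccne1 was at 0.57 and none of the firing genes was 2-fold lower, and with the mean of probe sets the helicase gene Cdc45 was at -0.37. With 2 to 12 genes in a class and no replicate array, these medians describe the 2 arrays, and no difference between classes was tested.

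**Figure D3:**
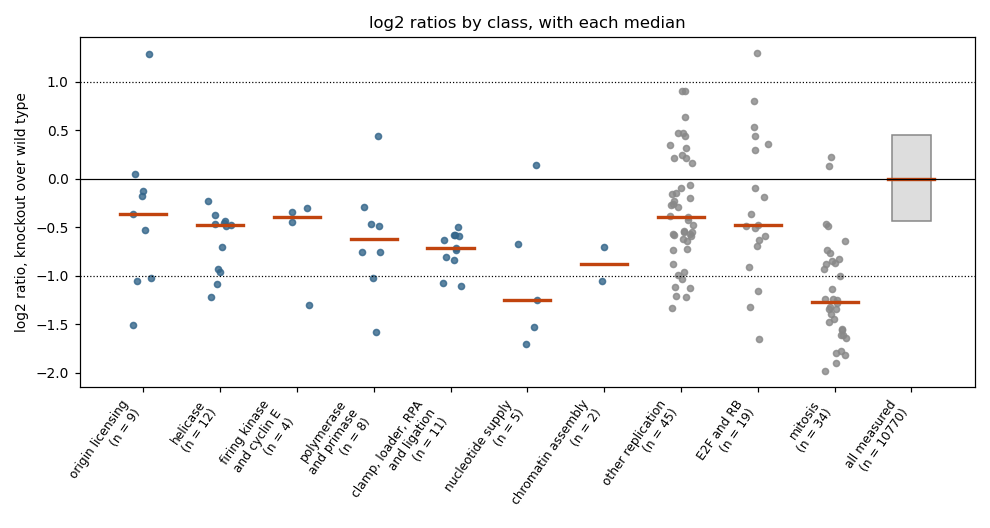
log2 ratio of knockout over wild type for each measured gene by class (points) with the class median (bar), followed by other replication genes, E2F and RB genes, mitosis genes, and the interquartile range of all 10770 measured genes (box). The nucleotide supply bar lies at -1.25, near the mitosis bar at -1.27, and the bar of all measured genes at 0.00.

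Bright probe sets were lower in knockout cells in general, so the members were also read against genes of like signal. All measured genes were ranked by signal and split into 4 equal bins. In the brightest bin the median log2 ratio was -0.18, and 61.5% of those genes were below 0. The 29 members in that bin were all below 0, with a median of -0.76. In the bin below it, all measured genes had a median of 0.016 and the 16 members there one of -0.40. The members' shift was thus larger than that of all genes in both bins, which held most of the members. How far a trend with signal enters these values was not tested beyond the other scalings.

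**Figure D4:**
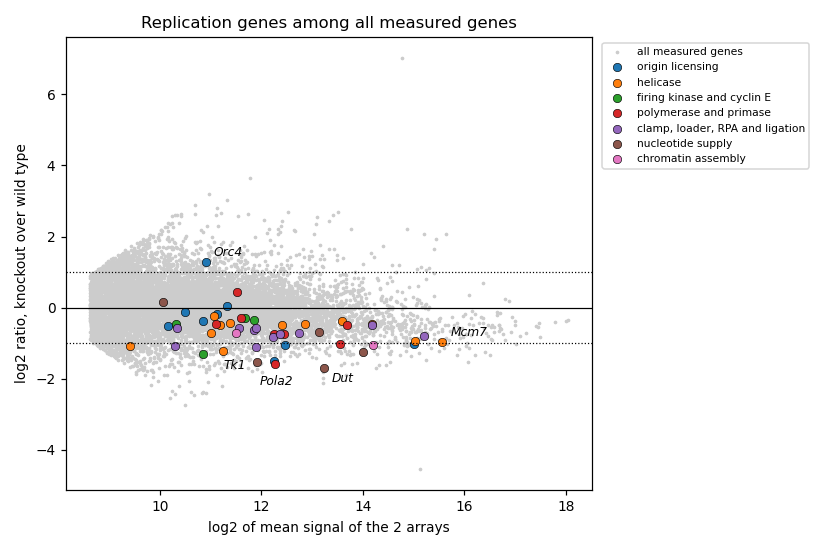
log2 ratio of knockout over wild type against the log2 mean signal of both arrays for all measured genes (grey) and for the replication genes (coloured by class), with dotted lines at 2-fold. The coloured points lie below 0 but for 4, and Dut lies lowest of them at -1.71.

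The repeat reading available was that of several probe sets for 1 gene. The members had 110 probe sets, of which 95 were measured, and 82 of the 95 had a log2 ratio below 0, where 48.7% of all measured probe sets of named genes did. At least 2-fold lower were 19 of the 95, against 5.68% of all, and 2 were at least 2-fold higher, against 7.76% of all. Of the 32 members with 2 or more measured probe sets, 23 had all of them on 1 side of 0 and 9 did not. Those 9 were Orc3, Orc4, Cdc45, Ccne1, Cdc7, Prim2, Rfc1, Rfc2 and Chaf1b. The same split was not computed for the 4514 genes with 2 or more measured probe sets, so 23 of 32 has no background to be read against.

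Among the 14 members at least 2-fold lower, Cdt1 and Dut were past 2-fold by every measured probe set. Cdc6, Gmnn, Pola2 and Tk1 had 1 measured probe set each. For Gins3, Pold1, Rfc3, Rfc4, Rrm2 and Uhrf1 another probe set was below 0 but under 2-fold, and for Ccne1 and Cdc45 another was above 0. Within the members the SD between probe sets of 1 gene was 0.51, close to that of all genes. Under quantile or loess normalization 9 of the 14 passed, without Cdt1, Gmnn, Pold1, Rrm2 and Uhrf1, and without probe sets of shared sequence 8 passed, among 46 members then measured. A single gene near 2-fold is therefore not distinguished from the spread between probe sets.

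**Figure D5:**
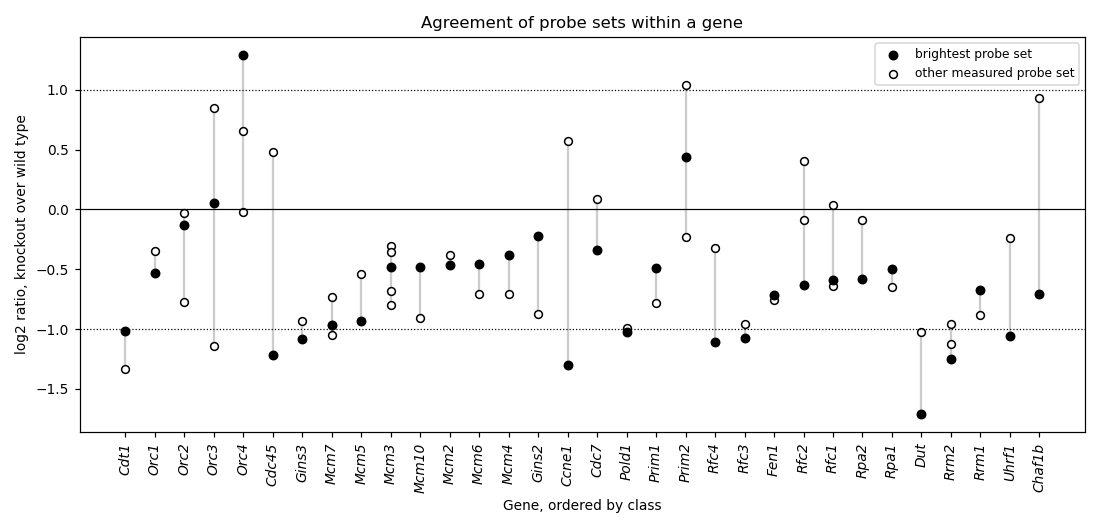
log2 ratio of knockout over wild type for every measured probe set of the 32 members with 2 or more, the brightest filled and the others open, with dotted lines at 2-fold. The points of Mcm2 to Mcm7 all lie below 0, whereas Orc3, Cdc45, Ccne1, Prim2 and Chaf1b have points well to either side of 0.

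Other genes of the replication pathway showed a smaller shift. Of 48 listed, 45 were measured, and their median log2 ratio was -0.39. Below 0 were 33 of the 45, or 73.3%, against 50.0% of all measured genes. Of the 45, 6 passed 2-fold downward, or 13.3%, against 5.65% of all measured genes. No gene of the list passed it upward, where 7.23% of all measured genes did. Asf1a, a histone chaperone that hands new histones on for deposition, read 7765 in knockout cells against 19542 in wild-type cells, 2.52-fold lower, and Dscc1, part of an alternative clamp loader, read 876 in knockout cells against 2032 in wild-type cells. At the other end, Chtf8, another part of that loader, had a log2 ratio of 0.90, and Stn1, which acts at telomeres in fill-in synthesis, one of 0.90.

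The E2F and RB family, the regulators of many members, had a median of -0.47 over 19 measured genes and was divided. E2f8, a repressor of the family, read 965 in knockout cells against 3020.4 in wild-type cells, 3.13-fold lower, and Lin54, of the DREAM complex, was 2.49-fold lower. The pocket protein gene Rbl2, which encodes p130, read 2285 in knockout cells against 931 in wild-type cells, 2.46-fold higher, and Rb1 read 1455 in knockout cells against 832 in wild-type cells, a log2 ratio of 0.81. The family's median was -0.12 with the mean of probe sets. Mitosis genes were shifted further than the members, with 22 of 34 measured genes, or 64.7%, at least 2-fold lower, against 5.65% of all measured genes. Their median was -1.27. Their lowest ratios were those of Cdca8 (-1.99) and Ube2c (-1.90), and the highest were those of Smc4 (0.14) and Ndc80 (0.23). The difference between these lists and the members was not tested.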

How the data were processed

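RNA of sorted thymocytes was amplified, labelled with biotin and hybridised to 1 array per genotype, per the labels' protocols. Each deposited value is the intensity of 1 probe set, not log-transformed. The submitters' processing notes name GCOS version 1.4, and the sources used here do not give its settings. The mean after trimming 2% at each end was 1000 on both arrays. Of 45101 probe sets, 64 controls were left out and 34958 had 1 gene symbol, taken from the platform annotation and updated by gene identifier from RefSeq (GRCm38.p6). The members and lists were chosen with earlier results of these data known. Signals under the floor (394, the median of both arrays) were raised to it, the log2 ratio of knockout over wild type was taken, and a gene was represented by its brightest named probe set (mean of both arrays). The size rule asked for a ratio of 2-fold after flooring and for 1 signal above the floor. All members could be named, of other lists the 2 lowest and 2 highest; a few cell type markers were named after their values were seen. Alternatives covered scaling, floor, probe set choice and fold size. Computations used Python 3.11.15 and statsmodels 0.14.6 and were tested on simulated data. The number of arrays limits the precision.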

Additional observations from a re-analysis of the deposited data

How the results depend on the processing

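The count of members at least 2-fold lower, 14, was 9 under quantile and 9 under loess normalization, 10 with the mean of measured probe sets, 8 without probe sets of shared sequence, 13 with the floor at the 60th percentile, where Gins3 (-0.76) no longer passed, and 27 at 1.5-fold. Cdt1, Gmnn, Pold1, Rrm2 and Uhrf1 no longer passed under quantile or loess normalization, and the cause was not tested. Dut, Pola2 and Tk1 passed in all 8 alternatives. Not all of these were strict, since the 1.5-fold rule can remove no call. Median centring and the floor at the lower quartile left all 14 calls as they were. The single higher member, Orc4, gave a count of 0 with the mean of probe sets and 0 without probe sets of shared sequence. In that last setting, Orc4 had a log2 ratio of -0.019 and Ccne1 one of 0.57, both of opposite sign to the value of the brightest probe set. With the mean of probe sets, the chromatin assembly median of 2 genes was -0.27, since the Chaf1b probe sets disagree, and the E2F and RB median was -0.12. Apart from that of chromatin assembly, the medians moved by less than the SD between probe sets of a gene, 0.57. This SD was the limit used for lack of replicates. It does not measure a spread between replicates and is a wide limit for a median over several genes. The members' median ranged from -0.66 to -0.55 over the 7 alternatives that bear on it, and the number below 0 was 47 of 51 in all of them but 1, where it was 42 of 46. No paired analysis was possible because each genotype has 1 array, and no array could be left out.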
